A study of Mus musculus with 6 samples.

Results

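Collagen chain genes encode the single polypeptide chains from which every collagen molecule is built. They were chosen by name alone: every row of the deposited count table whose gene symbol is Col, digits, a and digits, with nothing else. This gave 44 genes of 52997 symbols. By the kind of assembly they form, 11 are fibrillar, 9 network-forming, 9 FACIT (fibril-associated collagens with interrupted triple helices), 6 type VI, 2 multiplexin, 4 transmembrane and 3 of other kinds. Of the 44, 27 had enough counts to be tested for a difference between tissues, and 17 had not.

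Each collagen molecule is a triple helix of 3 chains, identical or different, and the helix needs a glycine at the head of each triplet of residues, written Gly-X-Y. Fibrillar collagens join into the cables that carry load in connective tissue, type IV collagen forms the sheet-like network of basement membranes, FACITs decorate the surface of fibrils, and type VI collagen makes beaded filaments around cells. In skeletal muscle the connective tissue sheaths around fibres are laid down by mesenchymal stromal cells, often called fibro-adipogenic progenitors, and in lymph nodes fibroblasts wrap and maintain collagen conduits that carry fluid.

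Messenger RNA was measured by RNA sequencing in mesenchymal stromal cells of C57BL/6 mice, 8 weeks of age, at homeostasis. The muscle group held 3 libraries of cells from hindlimb skeletal muscle. The lymph node group held 3 libraries of cells pooled over inguinal, axillary, brachial and cervical nodes, so differences among node sites cannot be seen. Each library was made from 1000 cells sorted in 2 passes, and the labels do not say which markers the sort used. The table numbers its muscle columns 2, 3 and 4 and its lymph node columns 1, 2 and 3, and the libraries are called by these numbers. The design text calls them biological replicates, but a pair of muscle samples carries the same number in its titles, and whether each library came from a separate animal is not stated. The p-values therefore measure only the spread between these libraries.

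Total counts ran from 1256276 to 2397134 in 5 libraries and came to 415460 in muscle library 4. That library also carried lymphocyte transcripts: 9 T cell markers summed to 444 CPM (the count normalised to library size, here by TMM, which also corrects for composition), against 10.8 to 12.1 in the other muscle libraries and 3.997 to 10.02 in lymph node libraries. Its 7 B cell markers summed to 1874 CPM, against 30.1 to 41.5 in the other muscle libraries and 15.4 to 260 in lymph node libraries. Its 8 myeloid markers summed to 126 CPM, against 7.68 to 8.97 in the other muscle libraries and 16.6 to 20.5 in lymph node libraries. Lyz2 (83.3 CPM) and Tyrobp (26.9 CPM) led this sum, and Cd68, Csf1r and Itgam were at 0. In muscle library 4 the 5 epithelial markers summed to 21.5 CPM, on at most 4 counts each, against 0.571 to 6.01 in the other libraries. All 9 stromal markers (such as Pdgfra, Dcn and Lum) were tested and 0 were called, with sums of 16209 to 22971 CPM in muscle and 24712 to 25526 in lymph node libraries. The 8 muscle fibre markers summed to 16.1 to 71.5 CPM in muscle and 10.3 to 15.0 CPM in lymph node libraries. Genes called in either of 2 fits, with all 6 libraries or without muscle library 4, are given with the values of both, and the plot of fold changes shows both fits for every tested collagen gene. The part of the lymphocyte, myeloid and epithelial transcripts and of the lower depth in these results was not tested.

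The coding sequence shows what makes these genes one family and how the classes differ. Printed here are the first 10 Gly-X-Y triplets of the longest unbroken stretch in 8 chains: the 2 abundant fibrillar chains Col1a1 and Col3a1, the leading FACIT Col14a1, and 5 chains that differed between tissues in at least 1 of the fits below. The glycine codon at the head of each triplet is in capitals. The sequences are from GENCODE M21 (build GRCm38), 5′ to 3′ along the coding strand and joined across exons.
Col1a1: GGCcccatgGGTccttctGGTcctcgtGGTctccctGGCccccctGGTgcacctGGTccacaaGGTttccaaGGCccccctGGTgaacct
Col3a1: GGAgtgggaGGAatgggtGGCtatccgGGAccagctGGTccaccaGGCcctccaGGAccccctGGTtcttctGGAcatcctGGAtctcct
Col5a3: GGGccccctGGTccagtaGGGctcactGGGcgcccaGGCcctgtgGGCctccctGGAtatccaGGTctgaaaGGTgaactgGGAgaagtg
Col4a5: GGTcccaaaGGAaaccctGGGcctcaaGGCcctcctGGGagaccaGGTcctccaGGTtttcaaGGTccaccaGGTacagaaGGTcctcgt
Col8a1: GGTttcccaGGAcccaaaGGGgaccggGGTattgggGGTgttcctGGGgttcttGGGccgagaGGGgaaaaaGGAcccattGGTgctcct
Col8a2: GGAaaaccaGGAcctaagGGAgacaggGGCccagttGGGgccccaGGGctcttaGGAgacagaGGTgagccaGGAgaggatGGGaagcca
Col14a1: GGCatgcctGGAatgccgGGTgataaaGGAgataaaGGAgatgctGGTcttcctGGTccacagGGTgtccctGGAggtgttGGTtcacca
Col6a5: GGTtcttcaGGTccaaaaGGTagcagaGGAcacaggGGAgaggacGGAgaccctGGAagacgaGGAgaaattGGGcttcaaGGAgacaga
The stretches lie at chr11:94939451-94939939 on the plus strand (Col1a1), chr1:45323762-45325413 plus (Col3a1), chr9:20801077-20801260 minus (Col5a3), chrX:141656825-141666867 plus (Col4a5), chr16:57627994-57628083 minus (Col8a1), chr4:126311141-126311230 plus (Col8a2), chr15:55471708-55473306 plus (Col14a1) and chr9:105915677-105918239 minus (Col6a5). In Col8a1 and Col8a2 the 90 bases are contiguous in the genome, inside 1 coding exon, while in the other 6 chains they cross introns. Only unbroken runs of 6 or more triplets were counted, as stretches. The longest stretch of the fibrillar chains had 216 to 344 triplets (338 in Col1a1, 344 in Col3a1). It was shortest in Col24a1 and Col27a1 (216 and 217), which were broken into 3 stretches. Of the inner coding exons of fibrillar chains, 84.0% were a multiple of 9 bases, the length of 1 triplet. The type IV chains were broken into 22 to 27 stretches, the longest of 39 to 66 triplets. Col8a1 and Col8a2 were short chains of 142 and 143 triplets, type VI chains held 103 to 110, and Col14a1 had 78 triplets in a chain of 1797 residues.

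The share of counts taken by collagens overlapped between the groups, but only through muscle library 2. The 44 genes took 8.98%, 6.34% and 6.68% of counts in muscle libraries 2, 3 and 4. In lymph node libraries 1, 2 and 3 they took 9.53%, 7.63% and 7.77%, so that muscle libraries 3 and 4 lay below them all. Fibrillar chains held most of these counts in every library, from 81.2% to 86.0% of the collagen total, followed by type VI with 9.09% to 11.7%. Type I and type III chains alone (Col1a1, Col1a2 and Col3a1) took 75.6% to 80.0% in muscle and 80.1% to 82.1% in lymph node libraries, which did not overlap. The FACIT share was 1.57%, 1.91% and 2.33% in muscle libraries 2, 3 and 4, above the 0.893%, 1.25% and 1.38% in lymph node libraries 1, 2 and 3. These shares follow from the single genes described below and carry no test.

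Most collagen genes did not pass the test between tissues. With all 6 libraries, edgeR's quasi-likelihood test with Benjamini-Hochberg adjustment over all 10823 genes tested called 1 collagen gene higher in muscle (Col8a1) and 1 lower (Col6a5) at an adjusted p under 0.05. Of all tested genes 1.46% were called higher and 2.86% lower. Without muscle library 4, where 11246 genes were tested, 4 of 27 collagen genes were called higher (Col8a1, Col8a2, Col4a5 and Col5a3) and 2 lower (Col6a5 and Col4a4), against 4.79% and 7.58% of all genes. The collagen genes thus gained calls without that library as the whole table did. The median of their log2 fold changes (positive where muscle was higher) was -0.13, and that of all tested genes was 0.02. Without muscle library 4 the medians were -0.08 and 0.01. With all libraries an unadjusted p under 0.05 was reached by 9 of the 27 and by 15.1% of all tested genes.

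The tissues did not overlap in any library for 4 collagen genes higher in muscle (Col5a3, Col8a1, Col14a1 and Col16a1), beside 9.93% of all tested genes. Another 4 were lower in every muscle library (Col27a1, Col4a3, Col6a5 and Col23a1), beside 13.7% of all tested genes. The remaining 19 of the 27 overlapped. In sorted bulk samples, fewer cells of a type and less RNA per cell cannot be told apart, and this holds for every difference described here.

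**Figure D1:**
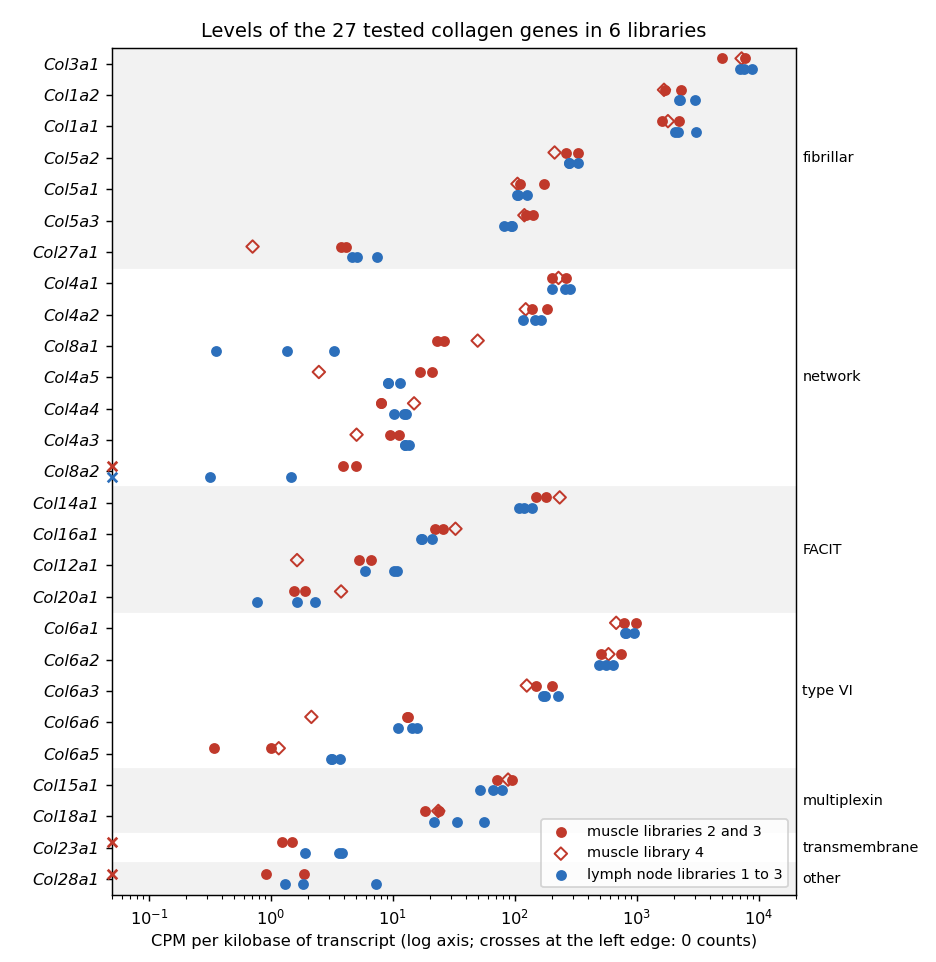
Level of each tested collagen gene in CPM per kilobase of transcript (log axis), grouped by class and ordered by level; filled red points are muscle libraries 2 and 3, open red diamonds muscle library 4, blue points the 3 lymph node libraries, and crosses at the left edge are 0 counts. Col3a1, Col1a2 and Col1a1 lie above all other collagen genes in all 6 libraries, and the tissues stand widest apart for Col8a1.

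The fibrillar chains were led by type III and type I collagen, the main load-bearing fibrils of soft connective tissue, and these chains overlapped between tissues. On the per-kilobase scale, which divides CPM by transcript length so that genes can be compared, Col3a1 averaged 7178 over the 6 libraries, Col1a2 2182 and Col1a1 2150. Read coverage along the transcripts was not measured, so these levels assume it to be even. Col3a1 had 42609, 27682 and 40133 CPM in muscle libraries 2, 3 and 4 and 48629, 38778 and 41788 CPM in lymph node libraries 1, 2 and 3. Muscle library 3 was lowest and the others overlapped, and the log2 fold change was -0.23 ± 0.25 (SE; adjusted p = 0.753). Col1a1 had 13074, 9509 and 10653 CPM in muscle and 18176, 12190 and 12891 CPM in lymph node libraries, with lymph node library 1 highest (-0.38 ± 0.24, adjusted p = 0.528). Col1a2 had 12192, 9070 and 8916 CPM against 15916, 11912 and 12020 CPM, with muscle library 2 inside the lymph node range (-0.40 ± 0.23, adjusted p = 0.473).

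Type V collagen, which sits in the core of type I fibrils and limits their width, is made from 3 genes, and 1 of them stood higher in muscle. Col5a3 had 864, 755 and 731 CPM in muscle libraries 2, 3 and 4 and 570, 579 and 501 CPM in lymph node libraries 1, 2 and 3. Every muscle library lay above every lymph node library, with means of 783 ± 70.9 and 550 ± 42.8 CPM (SD, n = 3 each), a 1.43-fold difference. The log2 fold change of 0.51 ± 0.17 did not pass the test with all libraries (adjusted p = 0.163) and was called without muscle library 4 (0.55 ± 0.13, adjusted p = 0.0136). The fold hardly moved between these fits, and the common biological coefficient of variation over all genes went from 0.265 to 0.151. Col5a1 (0.22 ± 0.23) and Col5a2 (-0.13 ± 0.21) overlapped between tissues, with adjusted p of 0.746 and 0.843.

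Col27a1, a fibrillar chain best known from cartilage, was the least abundant of the 7 tested. It had 31.6, 28.4 and 5.38 CPM in muscle and 56.0, 38.2 and 35.1 CPM in lymph node libraries. The groups did not overlap, but muscle library 4 held 2 counts, and the difference did not pass the test (-0.78 ± 0.41, adjusted p = 0.433; without muscle library 4 -0.51 ± 0.25, adjusted p = 0.242). The 6 chondrocyte markers (Sox9, Acan, Matn1, Matn3, Cnmd and Hapln1) summed to 24.2 to 29.2 CPM in muscle and 53.7 to 70.9 CPM in lymph node libraries, with 2 tested and Cnmd called lower in muscle, and Acan was at most 5.38 CPM. Their part in the Col27a1 values was not tested. Of the 7 fibrillar genes tested, 0 were called with all libraries by edgeR, DESeq2 or limma-voom, and 1 was called without muscle library 4. With all libraries 1 had an unadjusted p under 0.05 in edgeR's test, beside 15.1% of all tested genes.

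Among the network collagens, type VIII collagen differed most between tissues. Col8a1 encodes the α1 chain of this short-chain collagen, known from the subendothelial layer of vessels and from the Descemet membrane of the cornea. Col8a1 had 135, 118 and 253 CPM in muscle libraries 2, 3 and 4 and 6.85, 16.8 and 1.82 CPM in lymph node libraries 1, 2 and 3, which rest on 12, 39 and 4 counts. Every muscle library stood above every lymph node library, 118 against 16.8 CPM at the closest, and muscle library 4 was highest. Means were 168 ± 73.5 and 8.48 ± 7.60 CPM (SD, n = 3 each), an 18.8-fold difference in fitted values. The log2 fold change was 4.23 ± 0.59 (adjusted p = 0.00414), and 3.85 ± 0.39 without muscle library 4 (adjusted p = 1.03e-05). It was called in all 17 alternative settings listed under the processing, with log2 fold changes of 3.74 to 5.25 and an adjusted p of at most 0.0498, reached without lymph node library 1. Leaving out lymph node library 2, the highest of its group, gave the 5.25, and thinning every library to the smallest total gave 5.01.

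Col8a2, the partner chain of Col8a1, was present in muscle libraries 2 and 3 and low or at 0 elsewhere. It had 21.6 and 16.9 CPM in muscle libraries 2 and 3 (41 and 22 counts), 0 counts in muscle library 4, and 6.28, 0 and 1.37 CPM in lymph node libraries (11, 0 and 3 counts). The 0 of muscle library 4 allows up to 9.92 CPM (exact 95% Poisson limit, counting error only), so it lies below the other muscle libraries. With all libraries the difference was not called (2.64 ± 1.02, adjusted p = 0.251), and without muscle library 4 it was (3.04 ± 0.68, adjusted p = 0.00840). Col8a1 was thus 2.00 times the mean of the other muscle libraries in the library where Col8a2 was at 0.

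Of the markers of tendon cells, 1 was called higher in muscle, as Col8a1 was, while their sum overlapped between tissues. All 5 tenocyte markers (Tnmd, Scx, Mkx, Fmod and Thbs4) were in the table, 3 were tested and Thbs4 was called higher in muscle (4.04 on the log2 scale, adjusted p = 0.00587). Their sum was 141, 269 and 34.9 CPM in muscle libraries 2, 3 and 4 and 56.5, 24.1 and 12.3 CPM in lymph node libraries, and Scx, a defining factor of tendon cells, was at 0 in 4 of 6 libraries and at most 0.527 CPM. The muscle library with the highest Col8a1 level had the lowest tenocyte sum of its group. The part of such cells in the Col8a1 difference was not tested.

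Col8a1 and Col8a2 lie on chromosomes 16 and 4, and their proximal promoters, the last 100 bases before the RefSeq transcript start, are shown because both genes were higher in muscle without library 4. The letters GGGCGG, the core of the GC box, are in capitals on either strand (read as CCGCCC on the other), and matches may overlap.
Col8a1: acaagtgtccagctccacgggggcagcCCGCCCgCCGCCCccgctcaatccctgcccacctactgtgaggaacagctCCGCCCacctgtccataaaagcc
Col8a2: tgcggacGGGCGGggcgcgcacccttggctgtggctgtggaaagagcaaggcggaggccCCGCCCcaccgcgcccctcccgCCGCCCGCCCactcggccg
These stand at chr16:57754738-57754837 on the minus strand with 3 matches and chr4:126286694-126286793 on the plus strand with 4 matches (GRCm38.p6, from RefSeq). Within 250 bases before the start, GGGCGG was found in 21 of 35 collagen genes with a RefSeq promoter (60.0%) and in 35.4% of 27025 genes, while TATAAA was found in 5 of 35 (14.3%) and in 14.3% of all. A match describes the letters only.

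Type IV collagen forms basement membranes, and its 6 genes lie in 3 head-to-head pairs, the starts of each pair lying next to each other. Col4a1 and Col4a2, the chains of nearly all basement membranes, overlap by 22 bases at their starts and did not separate the tissues. Col4a1 had 1734, 1322 and 1505 CPM in muscle and 1859, 1708 and 1323 CPM in lymph node libraries (-0.10 ± 0.20, adjusted p = 0.882). Col4a2 had 1188, 894 and 790 CPM against 1060, 947 and 756 CPM (0.06 ± 0.22, adjusted p = 0.944). The ranges of the tissues overlapped for both genes.

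The minor chains Col4a3, Col4a4 and Col4a5, which assemble into the specialised network of kidney and lung basement membranes, differed in pattern from one another. Col4a3 and Col4a4 start 71 bases apart. Col4a3 had 81.2, 95.3 and 43.0 CPM in muscle and 115, 108 and 107 CPM in lymph node libraries, lower in every muscle library (-0.53 ± 0.26, adjusted p = 0.394; without muscle library 4 -0.33 ± 0.15, adjusted p = 0.211). Col4a4 had 80.2, 80.7 and 151 CPM against 128, 102 and 125 CPM, so that muscle library 4 stood above and the other muscle libraries below all lymph node libraries. It was called lower in muscle only without muscle library 4 among the 17 alternatives (-0.57 ± 0.16, adjusted p = 0.0351; with it -0.25 ± 0.27, adjusted p = 0.753). Col4a5 had 137, 109 and 16.1 CPM in muscle and 60.0, 59.7 and 75.1 CPM in lymph node libraries. Here muscle libraries 2 and 3 stood above and library 4, on 6 counts, below all lymph node libraries. The log2 fold change was 0.53 ± 0.48 with all libraries (adjusted p = 0.691) and 0.92 ± 0.17 without muscle library 4, where it was called (adjusted p = 0.00206). Col4a6, whose start lies 1308 bases from that of Col4a5, was too low to be tested, with 17 counts over the muscle and 14 over the lymph node libraries.

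Endothelial and mural cells also make type IV collagen. The sum of 7 endothelial markers was 191 to 383 CPM in muscle and 271 to 353 CPM in lymph node libraries, with Cdh5 at most 1.54 CPM. Tek made up most of the sum in every library, and in muscle library 4 Pecam1 added 59.1 CPM, against 1.29 to 3.84 CPM in the other 5. The sum of 7 mural cell markers was 111 to 140 CPM in muscle and 178 to 200 CPM in lymph node libraries, with Cspg4 called higher and Abcc9 called lower in muscle and Acta2 at most 5.27 CPM. Their part in the type IV values was not tested.

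**Figure D2:**
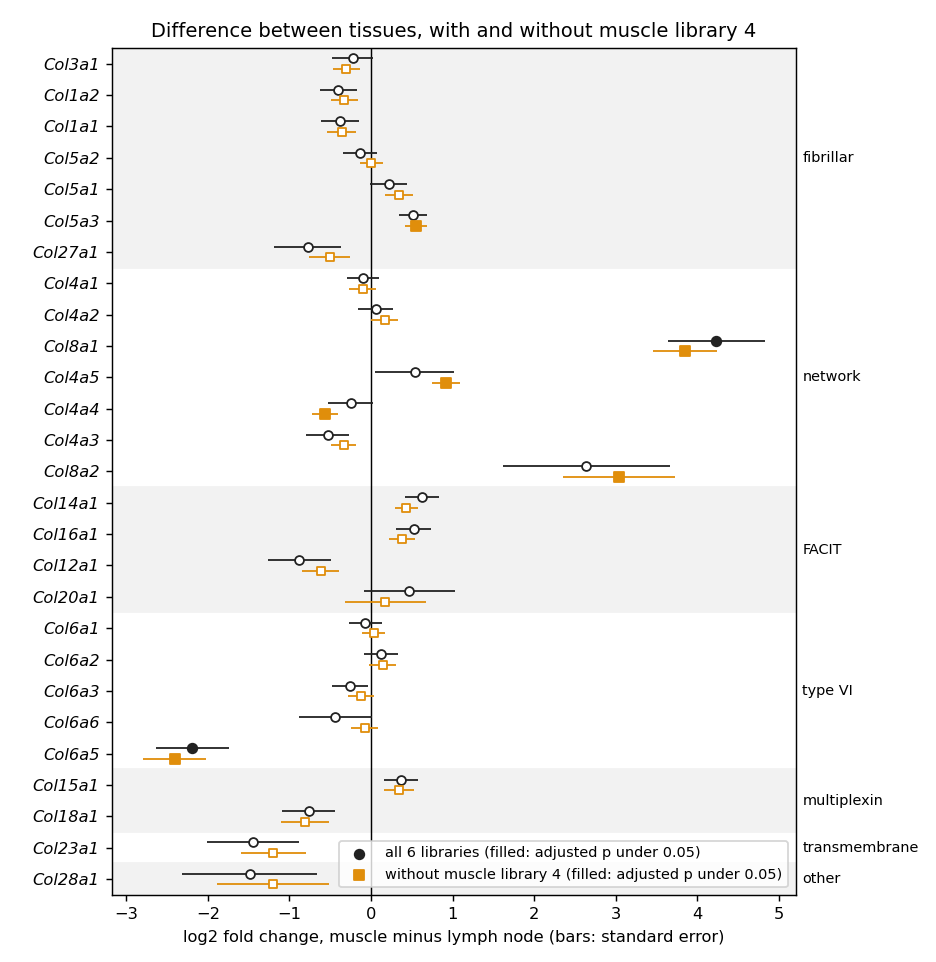
Log2 fold change of each tested collagen gene, muscle minus lymph node, with its standard error, from all 6 libraries (black circles) and without muscle library 4 (orange squares); filled symbols passed an adjusted p of 0.05 in edgeR's quasi-likelihood test. Col8a1 and Col6a5 are filled in both fits, and Col8a2, Col4a5, Col5a3 and Col4a4 only without muscle library 4.

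The FACIT class was led by Col14a1, a fibril-surface collagen that regulates fibril diameter. Col14a1 had 1163, 964 and 1503 CPM in muscle libraries 2, 3 and 4 and 700, 762 and 890 CPM in lymph node libraries 1, 2 and 3. All muscle libraries lay above all lymph node libraries, with means of 1210 ± 272 and 784 ± 96.9 CPM (SD, n = 3 each), a 1.54-fold difference. It did not pass the test (0.62 ± 0.21, adjusted p = 0.175; without muscle library 4 0.43 ± 0.14, adjusted p = 0.0674). Col16a1, a FACIT that links fibrils with other matrix, followed the same order at a lower level. It had 135, 115 and 169 CPM against 108, 90.6 and 88.8 CPM, without overlap (0.52 ± 0.21, adjusted p = 0.276).

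Col12a1, the FACIT of tendon and other loaded tissue, went the other way without passing the test. It had 60.7, 76.1 and 18.8 CPM in muscle and 68.5, 117 and 123 CPM in lymph node libraries, overlapping through lymph node library 1 (-0.88 ± 0.39, adjusted p = 0.326; without muscle library 4 -0.62 ± 0.23, adjusted p = 0.109). Col20a1 was near its detection limit, with 3.87 to 18.8 CPM over the 6 libraries (0.47 ± 0.56, adjusted p = 0.782). In sum over the 9 FACIT genes the muscle libraries held 1376, 1167 and 1736 CPM and the lymph node libraries 900, 980 and 1123 CPM, most of it Col14a1. Of the 4 tested FACIT genes 0 were called in either fit with edgeR's quasi-likelihood test, and 0 with DESeq2 or limma-voom. With all libraries 3 had an unadjusted p under 0.05 in edgeR's test, beside 15.1% of all tested genes. Of these, Col14a1 and Col16a1 were higher in muscle and Col12a1 was lower.

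Type VI collagen, the beaded filament collagen of the cell surroundings whose loss causes muscle weakness, was abundant, and its main chains were not called. Col6a1 had 4027, 3184 and 2771 CPM in muscle and 3882, 3283 and 3338 CPM in lymph node libraries (-0.07 ± 0.20, adjusted p = 0.923). Col6a2 had 3417, 2351 and 2720 CPM against 2958, 2573 and 2276 CPM (0.12 ± 0.21, adjusted p = 0.859). Col6a3 had 2027, 1512 and 1263 CPM against 2267, 1769 and 1727 CPM (-0.26 ± 0.22, adjusted p = 0.673). Each of the 3 overlapped between tissues.

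Col6a5, one of the chains that can take the place of the α3 chain, was lower in muscle. It had 3.16, 9.22 and 10.8 CPM in muscle libraries 2, 3 and 4, on 6, 12 and 4 counts, and 29.1, 33.9 and 28.7 CPM in lymph node libraries 1, 2 and 3, on 51, 79 and 63 counts. The highest muscle library stayed below the lowest lymph node library, with means of 7.71 ± 4.01 and 30.6 ± 2.92 CPM (SD, n = 3 each) and a fitted level 4.56-fold higher in lymph node. The log2 fold change was -2.19 ± 0.45 (adjusted p = 0.0253) and -2.41 ± 0.38 without muscle library 4 (adjusted p = 5.99e-04). The call did not survive leaving out muscle library 2 (adjusted p = 0.0821), muscle library 3 (0.0599), lymph node library 1 (0.114), 2 (0.172) or 3 (0.124), or summing muscle libraries 2 and 3 (0.0518), while the log2 fold change stayed between -1.67 and -2.61 in the 16 alternatives that tested it.

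The 3 genes Col6a6, Col6a5 and Col6a4 follow each other on the minus strand of chromosome 9, with 27917 bases between Col6a6 and Col6a5 and 28810 between Col6a5 and Col6a4. The tested neighbour of Col6a5 was not called. Col6a6 had 117, 114 and 18.8 CPM in muscle and 97.1, 139 and 127 CPM in lymph node libraries, so that only muscle library 4 stood apart (-0.44 ± 0.44, adjusted p = 0.734; without it -0.08 ± 0.17, adjusted p = 0.856). Col6a4 was not tested, with 8 counts over the muscle and 26 over the lymph node libraries, and its ratio of 0.573 had an interval from 0.224 to 1.3035. Whether the differences of these neighbours differ from that of Col6a5 was not tested. Of the 25-base words of Col6a5, 4.24% also occur in other genes, and of those of Col6a6 5.02%. How many reads were shared with other genes was not measured.

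**Figure D3:**
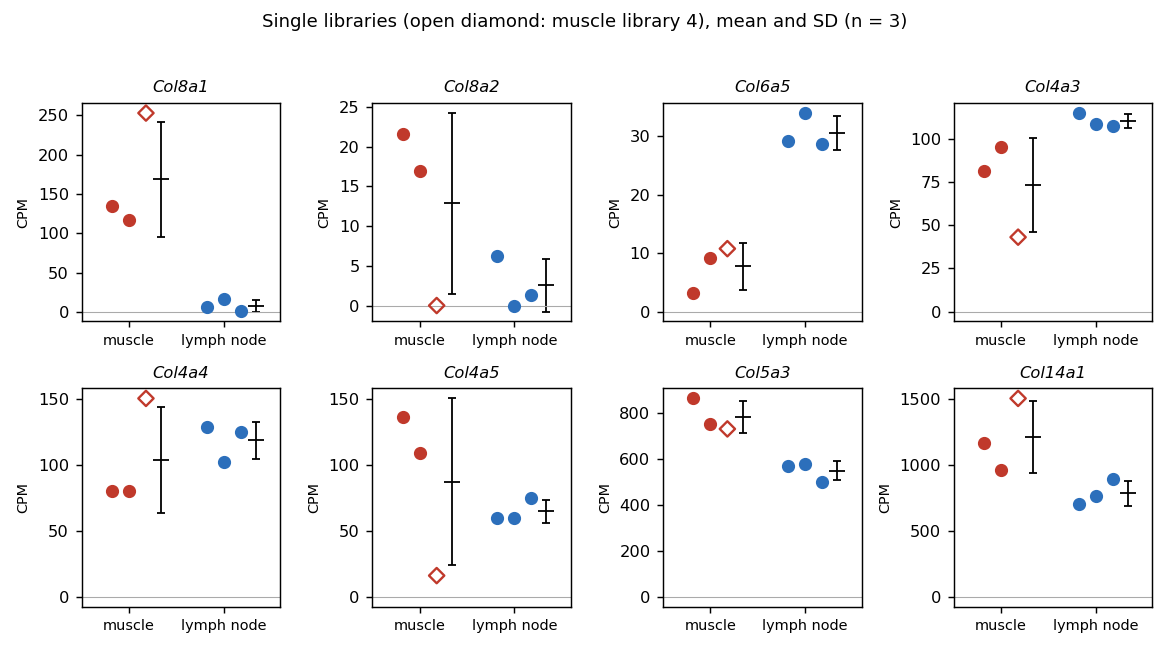
CPM of 8 collagen genes in each library (red, muscle; blue, lymph node; open diamond, muscle library 4) with the mean and SD of 3 libraries beside the points; each panel has its own linear axis. Col8a1 lies between 118 and 253 CPM in muscle and at most 16.8 CPM in lymph node libraries, Col6a5 is at most 10.8 against at least 28.7 CPM, and for Col4a4 and Col4a5 muscle library 4 falls on the far side of the lymph node libraries from the other muscle libraries.

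The multiplexins Col15a1 and Col18a1 encode basement membrane collagens that carry sugar chains, and their C-terminal fragments are known as restin and endostatin. Col15a1 had 492, 370 and 454 CPM in muscle and 409, 345 and 266 CPM in lymph node libraries (0.37 ± 0.21, adjusted p = 0.484). Col18a1 had 133, 102 and 132 CPM against 313, 186 and 122 CPM, with lymph node library 1 highest (-0.77 ± 0.33, adjusted p = 0.306). Each gene overlapped between tissues, yet their ratio did not. Per kilobase, Col15a1 was 4.01, 3.92 and 3.73 times Col18a1 in muscle libraries 2, 3 and 4 and 1.41, 2.00 and 2.35 times in lymph node libraries 1, 2 and 3. The ratio was among 10 chain ratios computed and has no test.

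Of the transmembrane collagens, which sit in the cell surface, Col23a1 alone was tested. It had 8.44, 6.92 and 0 CPM in muscle (16, 9 and 0 counts) and 10.8, 21.5 and 20.5 CPM in lymph node libraries, lower in every muscle library but not called (-1.45 ± 0.56, adjusted p = 0.256; without muscle library 4 -1.20 ± 0.40, adjusted p = 0.0678). Col28a1, a collagen known from peripheral nerve and placed here among the other kinds, had 7.91, 3.84 and 0 CPM against 30.8, 7.73 and 5.46 CPM, with lymph node library 1 far above the rest (-1.49 ± 0.82, adjusted p = 0.464). The sum of 6 Schwann cell markers was 14.6 to 56.4 CPM in muscle and 37.8 to 40.4 CPM in lymph node libraries, and lymph node library 1 did not stand apart in it.

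Proportions between chains were computed for the 10 pairs, most of which share a molecule or an assembly, and carry no test. Per kilobase, the ratio of Col1a1 to Col1a2, which combine in type I collagen, lay between 0.923 and 1.08 in all 6 libraries. The ratio of Col6a1 to Col6a2 lay between 1.16 and 1.66 and that of Col4a1 to Col4a2 between 1.42 and 1.86, and both overlapped between tissues. The ratio of Col5a1 to Col5a2 was 0.529, 0.422 and 0.496 in muscle and 0.386, 0.383 and 0.374 in lymph node libraries, higher in every muscle library. Col6a3 to Col6a1 was lower in every muscle library, at 0.204, 0.193 and 0.185 against 0.237, 0.219 and 0.210. The ratio of Col4a5 to Col4a4 was 2.64 and 2.09 in muscle libraries 2 and 3, 0.166 in muscle library 4, and 0.722 to 0.928 in lymph node libraries, so it moved more between muscle libraries than between tissues.

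The 17 untested collagen genes had 1 to 19 counts over the 3 muscle libraries and 1 to 26 over the 3 lymph node libraries. They include the main cartilage chains (Col2a1, Col9a1, Col9a2, Col9a3, Col10a1, Col11a1 and Col11a2) and epithelial collagens (Col7a1, the anchoring fibril chain, and Col17a1). The ratio of pooled counts per total count, muscle over lymph node, had an exact 95% binomial interval, not adjusted for the 17 genes. It left out 1 for Col13a1 (8 counts against 1, ratio 14.9, interval 2.00 to 661) and Col4a6 (17 against 14, ratio 2.26, interval 1.05 to 4.96). In muscle libraries 2, 3 and 4 Col13a1 had 2, 6 and 0 counts and Col4a6 11, 6 and 0. In lymph node libraries 1, 2 and 3 Col13a1 had 1, 0 and 0 counts and Col4a6 1, 4 and 9. The tissues thus overlapped in both genes. For the other 15 the interval held 1, as for Col11a1 (18 against 17, ratio 1.97, interval 0.959 to 4.07) and Col25a1 (19 against 19, ratio 1.86, interval 0.933 to 3.72). In libraries 2, 3 and 4 of muscle and 1, 2 and 3 of lymph node, Col25a1 had 4, 10, 5, 8, 4 and 7 counts and Col17a1 2, 9, 1, 2, 4 and 7, the next transmembrane chains after Col23a1. Col26a1 had 2, 1, 1, 0, 3 and 7 counts and Col7a1 4, 4, 0, 4, 7 and 10. The tissues overlapped in each of Col25a1, Col17a1, Col26a1 and Col7a1 too. The ratio intervals cover counting error only, and PCR copies of a molecule can be counted more than once. At this depth no difference between tissues could be shown for the 17 untested genes.

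Single libraries of a tissue differed from each other in many collagen genes. For each library, the exact 95% Poisson interval of each of the 27 tested genes was set against the values of the other libraries of its tissue. These intervals cover counting error only, and PCR copies make them too narrow. In muscle library 4, 10 genes lay below both other muscle libraries, 3 above and 14 neither. In muscle library 2 the numbers were 1 below, 14 above and 12 neither, and in muscle library 3 they were 7, 1 and 19. Lymph node library 1 had 4 below, 16 above and 7 neither, library 2 had 4, 1 and 22, and library 3 had 7, 2 and 18. The number of such genes was not highest in muscle library 4, but the intervals widen as depth falls. Its effective library size was 372015, against 1301374 to 2327734 in the other libraries. These numbers therefore cannot rank the libraries by how far they depart.

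The single genes of muscle library 4 with the widest gaps had few counts there. Lower than the mean of muscle libraries 2 and 3 were Col4a5 (7.62-fold, on 6 counts), Col6a6 (6.14-fold, on 7), Col27a1 (5.59-fold, on 2), Col12a1 (3.63-fold, on 7), Col4a3 (2.05-fold, on 16) and Col8a2 at 0, and, by 1.301-fold to 1.402-fold, Col4a2, Col5a2, Col6a1 and Col6a3. Above both were Col8a1 (2.00 times the mean), Col4a4 (1.87 times) and Col14a1 (1.41 times). Col3a1, Col1a1 and Col4a1 were at 1.14, 0.943 and 0.985 of that mean. Among untested genes, Col19a1 had 8 of its 10 muscle counts in this library. The lymphocyte and myeloid marker sums given above were high in the same library, and their part in these values was not tested.

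**Figure D4:**
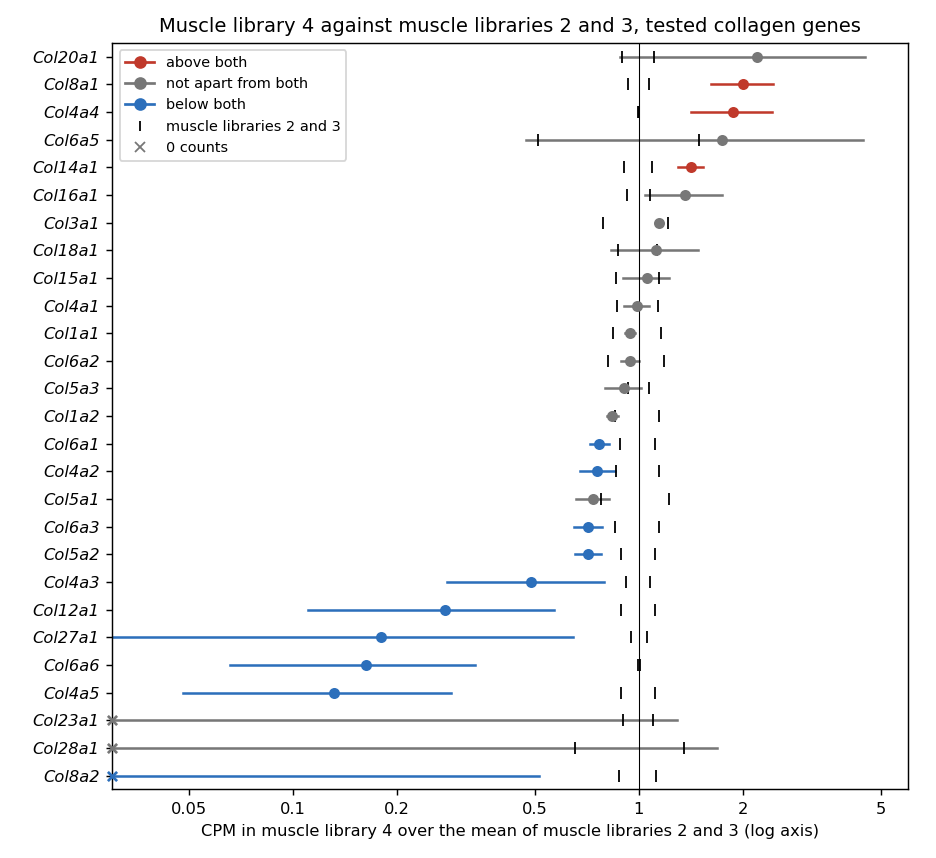
CPM of each tested collagen gene in muscle library 4 divided by the mean of muscle libraries 2 and 3 (log axis), with the exact 95% Poisson interval of library 4 (counting error only); short black ticks are libraries 2 and 3, and crosses at the left edge are 0 counts. Col8a1, Col4a4 and Col14a1 (red) lie above both other libraries, and 10 genes (blue) lie below both, down to Col4a5, 7.62-fold lower, and Col8a2 at 0.

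The machinery that makes and breaks down collagen was given by 58 listed genes for chain folding and modification, secretion, propeptide cleavage, cross-linking, receptors and breakdown, of which 48 were tested. With all libraries 1 was called higher in muscle (Colgalt2) and 0 lower, beside 1.46% and 2.86% of all tested genes. Their median log2 fold change was -0.31, that of all tested genes 0.02. Colgalt2 encodes an enzyme that adds galactose to hydroxylysine of collagen chains. It had 75.4, 84.5 and 86.0 CPM in muscle and 9.14, 17.6 and 10.9 CPM in lymph node libraries, without overlap. Its log2 fold change was 2.67 ± 0.28 (adjusted p = 0.00114), it was 2.63 ± 0.25 without muscle library 4, and it was called in all 17 alternatives (2.47 to 2.99). Its paralogue Colgalt1 had 135, 127 and 188 CPM against 173, 163 and 156 CPM (-0.15 ± 0.20, adjusted p = 0.805). In edgeR's test 10 of the listed genes lower in muscle and 5 higher had an unadjusted p under 0.05. Of all tested genes 15.1% did so in either direction. Where edgeR called 0 genes lower, DESeq2 called 2 and limma-voom 1.

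Without muscle library 4, 49 of the listed genes were tested, 5 were called higher in muscle and 6 lower, beside 4.79% and 7.58% of all genes. Their median log2 fold change was -0.22, that of all genes 0.01. With all 6 libraries none of these but Colgalt2 was called. Fap encodes a membrane protease of activated fibroblasts and had 295, 263 and 185 CPM in muscle and 151, 188 and 182 CPM in lymph node libraries. Its log2 fold change was 0.68 ± 0.15 without muscle library 4 (adjusted p = 0.00597) and 0.53 ± 0.21 with it (adjusted p = 0.276). Mrc2, an uptake receptor for collagen, had 323, 207 and 183 CPM against 194, 141 and 144 CPM (0.73 ± 0.20, adjusted p = 0.0228, and 0.59 ± 0.25, adjusted p = 0.310, in the same order of fits). Loxl2, a cross-linking oxidase, had 366, 292 and 121 CPM against 230, 241 and 230 CPM, with muscle library 4 on the other side of the lymph node range. It moved from 0.49 ± 0.14 (adjusted p = 0.0368) to 0.18 ± 0.32 (adjusted p = 0.865). Plod1, a lysyl hydroxylase gene, was at 0.57 ± 0.17 without muscle library 4 (adjusted p = 0.0417) and 0.34 ± 0.28 with it (adjusted p = 0.658).

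The lower genes included Loxl4, another cross-linking oxidase, with 13.7, 13.1 and 0 CPM in muscle and 41.1, 34.4 and 44.6 CPM in lymph node libraries (-1.58 ± 0.26, adjusted p = 8.27e-04 without muscle library 4; -1.84 ± 0.47, adjusted p = 0.0667 with it). Serpinh1, the chaperone that collagen chains need to fold, had 943, 497 and 599 CPM against 1643, 1355 and 1191 CPM, with every muscle library below every lymph node library. Its log2 fold change was -0.96 ± 0.22 without muscle library 4 (adjusted p = 0.0104) and -1.03 ± 0.26 with it (adjusted p = 0.0621). The protease gene Ctsk had 238, 204 and 108 CPM against 329, 373 and 294 CPM, without overlap (-0.59 ± 0.15, adjusted p = 0.0188 without muscle library 4, and -0.82 ± 0.27, adjusted p = 0.156 with it). The collagen receptor gene Ddr2 had 723, 678 and 441 CPM against 974.7, 891 and 1024 CPM, again without overlap (-0.47 ± 0.13, adjusted p = 0.03001, and -0.64 ± 0.21, adjusted p = 0.167). The folding enzyme gene Fkbp14 was at -0.64 ± 0.19 without muscle library 4 (adjusted p = 0.0389) and -0.79 ± 0.25 with it (adjusted p = 0.144). The gelatinase gene Mmp2 was at -0.40 ± 0.12 (adjusted p = 0.0452) and -0.69 ± 0.29 (adjusted p = 0.310). All 6 lower genes lay lower in every muscle library than in every lymph node library, as did 13.7% of all tested genes. These 6 were chosen by their call without muscle library 4, so their lack of overlap in the remaining libraries is no separate result. The size of their log2 fold changes was smaller without muscle library 4 than with it.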

How the data were processed

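The authors deposited 1 table of raw counts with gene symbols in rows and the 6 libraries in columns, and these counts were used as deposited. Per the labels' protocols, polyadenylated RNA of 1000 sorted cells was primed with oligo(dT), amplified by PCR without molecular identifiers, cut by a transposase and sequenced in paired reads of 25 bases. The submitters' processing notes name STAR 2.5.4, featureCounts and the mouse build mm10, and strand use is not given in the sources used here. Columns were assigned to tissue by name, muscle columns without a link to single titles, and 0 columns were left unmatched.

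All members and gene lists were chosen with earlier results of these data known. Every collagen gene is accounted for. Values in each library are given for called collagen genes, for the 3 highest per kilobase in each class, and for up to 4 called genes each way, by smallest p, of the synthesis and breakdown list.

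Differences were tested with edgeR 4.0.16 in R 4.3.3 (filterByExpr, TMM scaling, quasi-likelihood F test on tissue, two-sided, Benjamini-Hochberg over all tested genes, adjusted p under 0.05). Standard errors are the size of the log2 fold change over the square root of F. CPM use the TMM library size, and levels per kilobase the longest coding transcript in GENCODE M21. The 17 alternatives were RLE and total-count scaling, no filter, limma-voom (limma 3.58.1), DESeq2 1.42.0, a floor of 10 CPM in 3 or more libraries, leaving out each library, summing each pair of muscle libraries, a block by column number, and thinning to the smallest total. The procedure was tested on simulated data.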

Additional observations from a re-analysis of the deposited data

How the results depend on the processing

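Col8a1 and Colgalt2 kept their direction and their call in all 17 alternatives. The number of collagen genes called higher in muscle was 1 in 12 of them. It was 2 without a filter on low counts, 4 and 5 with muscle library 4 summed with library 2 or 3, and 1 to 4 when single libraries were left out, the 4 coming without muscle library 4. The number called lower was 0 with muscle libraries 2 and 3 summed, 2 with 2 and 4 summed, and 0 to 2 when single libraries were left out. It was 1 with thinned counts, but the gene was then Col27a1 and Col6a5 was not tested.

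Of the collagen synthesis, processing, receptor and breakdown genes, 1 to 5 were called higher when single libraries were left out, and 3 with muscle library 4 summed with library 2 or 3. The number called lower was 4 without a filter, 2 with DESeq2, 1 with limma-voom, 7 with muscle library 4 summed with library 2 or 3, and 0 to 6 when single libraries were left out. Loxl2 changed sign without muscle library 2 and with muscle libraries 2 and 3 summed (-0.0133), and its log2 fold change ran from -0.16 to 0.49 when single libraries were left out. The single genes counted here were those called with all libraries or without muscle library 4. The latter fit is itself an alternative, so part of the added passes follow from the choice of genes. Of 286 values of single named genes under alternatives, 222 kept direction and side of the threshold, 56 passed it in addition, 6 no longer passed it and 2 changed sign. The cause was not tested. Where a tissue was left with a pair of libraries, its spread was pooled with that of the other tissue.

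Both tissues have columns numbered 2 and 3, and a replicate block on these numbers used 4 libraries only. It called 6 collagen genes higher and 3 lower, and 8 and 8 of the synthesis and breakdown genes. The numbers share no stated animal or batch, and the difference between libraries 2 and 3 correlated between tissues at r = 0.0517 across genes, which are not independent replicates. Depth limits the 17 untested collagen genes and, in muscle library 4, every gene of a few counts.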
